A study of Mus musculus with 18 samples.

Results

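Small intestinal crypt cells without a Flattop reporter signal were set against crypt cells with a low or a high signal, gene by gene. The comparison used the 2 arrays of the reporter-negative gate and the 4 arrays of the positive gates, 6 of the 18 samples of the series, and weighted the reporter-low and the reporter-high mean equally. Of 19938 genes measured, 2552 had all 4 positive arrays below both negative arrays and 2191 had all 4 above. These genes, and those of them that also passed the test of the difference, are described here.

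The crypts came from C57Bl6/J mice 4 months old of genotype FltpZV/+, in which an allele of Flattop (gene symbol Cfap126) reports transcription of the gene as Venus fluorescence. All gates carried this genotype, and no group without the allele was used. Single cells were sorted on green fluorescence into a gate without signal (reporter-negative), a dim gate (reporter-low) and a bright gate (reporter-high). There were 2 arrays per gate, and the RNA on any 1 array was a pool from 2 animals. The labels do not say whether gates of the same replicate number came from the same animals, so p-values measure only the spread between these samples. The question asked of the positive gates together is which transcripts separate all reporter-bearing crypt cells from the rest, whatever the brightness. In bulk RNA, fewer cells of a type and less RNA per cell cannot be told apart, and this holds for every value below.

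The crypt holds stem cells and dividing progenitors, which feed an absorptive branch of enterocytes and a secretory branch of Paneth, goblet, enteroendocrine and tuft cells. Notch signalling favours the absorptive branch, and cells that escape it take a secretory fate and leave the cell cycle. Flattop belongs to the planar cell polarity pathway, which orients cells within the plane of an epithelium.

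Values are log2 intensities normalised by the authors, with 1 probe set per gene. A level of 4.23, the 95th percentile of the mean values of 1207 olfactory, vomeronasal and trace amine receptor genes, served as background. Array medians over probe sets ran from 4.54 to 4.74. The share of genes above background was 61.4% and 62.5% on the negative arrays, 62.8% and 63.1% on the reporter-low arrays and 65.6% and 69.6% on the reporter-high arrays. Replicates of a gate correlated across genes at 0.981 (negative), 0.975 (low) and 0.946 (high). Precision is limited by there being 2 arrays per gate. Cfap126 itself read 5.39 and 4.79 in the negative gate, 5.16 and 6.13 in the reporter-low gate and 5.15 and 5.0 in the reporter-high gate. The gates overlapped, and negative minus the mean of both positive gates was -0.27 ± 0.31 (SE; limma, Benjamini-Hochberg adjusted p = 0.714), with a 95% interval from -1.0 to 0.46, so the level of Cfap126 did not by itself bear out the gates' labels. Crypt markers were present throughout, with Lgr5, Olfm4, Mki67 and Lyz1 above background on all 6 arrays.

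The negative gate differed from both positive gates in 1152 genes (5.78% of those tested; limma, adjusted p under 0.05). It was higher in 717 (3.6%) and lower in 435 (2.18%). The higher genes included Mki67 and other genes of cell division, carboxylesterases and enterocyte genes, 2 mast cell proteases and plasma cell transcripts. The lower genes included Paneth cell products and hormones and granule proteins of enteroendocrine cells. Of the called genes, 705 of the 717 (3.54% of all genes) and 367 of the 435 (1.84%) also had the 4 positive arrays on 1 side of both negative arrays, which 12.8% and 11% of all genes did. Among the 705, differences ran from 0.69 to 3.60 on the log2 scale with a median of 1.26. The 367 had a median of -1.38, and the largest reached 6.26 in size. The median over all genes was -0.05.

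The split between higher and lower calls moved with the scaling and with single arrays. Centring the arrays on their medians gave 867 higher and 370 lower genes, and quantile normalisation gave 397 and 395. Without negative replicate 1 or 2 the test called far fewer genes in both directions. In those fits 1 array stood for the gate and was assumed to vary like the others. All 717 and all 435 called genes kept their sign without either array. Some gene lists below are also counted at an unadjusted p under 0.05. The share of all genes at that level was not counted, so those counts are descriptions and cannot be weighed against it. The genes called with all arrays and without either negative array were 3 higher (Igkv10-96, Jchain and Kcnn4) and 24 lower (Adgrg4, Afp, Ang4, Bambi, Cck, Clps, Defa39, Disp2, Gip, Habp2, Mmp7, Neurod1, Nts, Nucb2, Nupr1, Peg3, Pnliprp2, Ptprn2, Rfx6, Rnase1, Samd5, Scg2, Scgn and Tmed6). Without reporter-low replicate 1 or 2 the counts were 388 higher and 288 lower, and 266 and 238. Without reporter-high replicate 1 or 2 they were 1250 and 623, and 865 and 537.

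The 2 directions differed in how alike the positive gates were. Of the 705 one-sided genes called higher in the negative gate, 38 (5.39%) also differed between the reporter-high and reporter-low gates, against 4.91% of all genes (1.01% brighter in the high gate and 3.89% in the low gate). Of the 367 called lower, 163 (44.4%) did, 48 of them brighter in the high gate and 115 brighter in the low gate. The median size of high minus low was 0.37 in the first set, 0.99 in the second and 0.33 over all genes. The sets were chosen on the means of these positive arrays, so these shares are given as a description. In the first set the median was -1.25 in low minus negative and -1.29 in high minus negative; in the second it was 1.55 and 1.17. These comparisons share the negative arrays. Both gates were called on their own against the negative gate in 252 of the 705 and in 92 of the 367. Only the low gate was called in 185 and 173, only the high gate in 198 and 97, and neither in 70 and 5. Over all genes, low minus negative called 5.96% in either direction and high minus negative 4.71%. Low minus negative called 681 genes higher and 507 lower (3.42% and 2.54%), and high minus negative called 272 higher and 667 lower (1.36% and 3.35%).

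**Figure D1:**
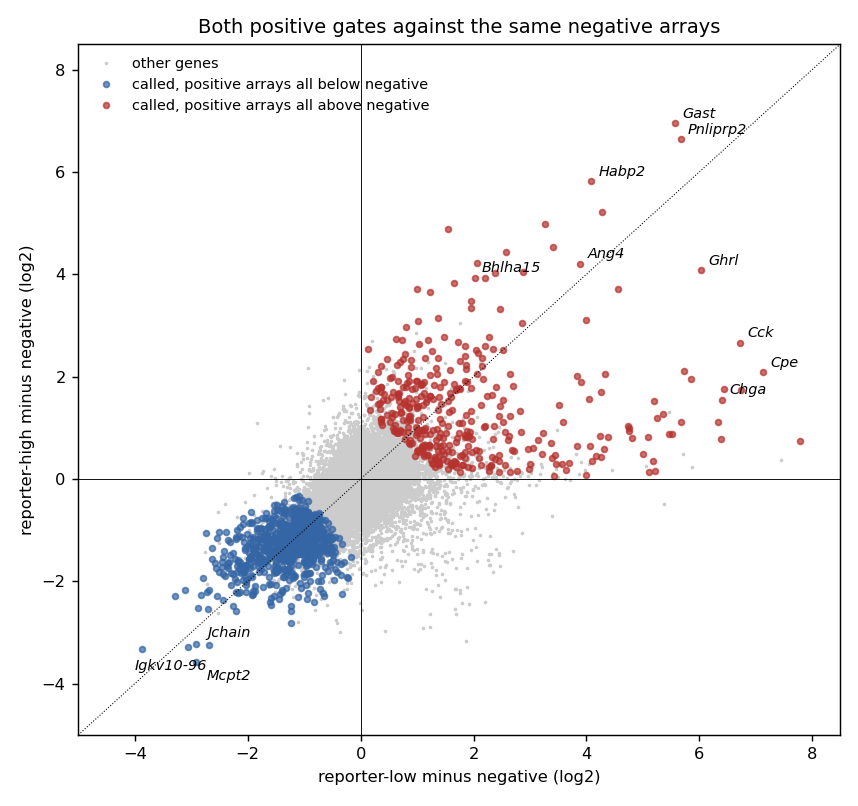
Each point is a gene, with reporter-low minus negative on the horizontal axis and reporter-high minus negative on the vertical axis, both on the log2 scale and both taken against the same negative arrays. Blue points are the 705 one-sided genes called higher in the negative gate, red points the 367 called lower, grey points all other genes, and the dotted line marks equal differences; blue points lie close around that line and red points spread away from it, toward the low gate for Cck, Cpe and Chga and toward the high gate for Habp2 and Bhlha15.

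Genes of cell division were higher in the negative gate than in both positive gates. Of 40 measured mitotic genes (41 listed), 29 were called higher and 0 lower, 72.5% against 3.6% of all genes. The median difference was 1.56, and 39 of the 40 had every positive array below both negative arrays. Mki67, which encodes the Ki-67 protein that coats mitotic chromosomes, read 8.29 and 8.03 in the negative gate, 6.39 and 6.04 in the reporter-low gate and 7.14 and 6.6 in the reporter-high gate. The gates did not overlap with the negative gate, and the reporter-low arrays were the lowest. The negative gate exceeded the positive gates by 1.62 ± 0.22 (SE), a 3.07-fold difference (limma, adjusted p = 0.0128). Kif11, the kinesin that pushes spindle poles apart, read 7.20 and 6.88, then 4.78 and 4.57, then 5.26 and 5.41 in the same order of gates, a 4.11-fold difference (adjusted p = 0.00403). Smc2 and Ncapd2, subunits of condensin, which compacts chromosomes, were 4.18-fold and 3.28-fold higher (adjusted p = 0.00468 and 0.00498). Tpx2, a spindle assembly factor that activates the Aurora A kinase, was 3.40-fold higher, with high minus low at 0.08 (95% interval -0.40 to 0.55). The list contained a gene called lower and a gene called higher in high minus low. Foxm1, a transcription factor of late cell cycle genes, read 6.54 and 6.53 in the negative gate, 5.58 and 5.56 in the low gate and 4.58 and 4.36 in the high gate, so the positive gates were themselves apart by -1.10 (adjusted p = 0.0213). Cdk1, the kinase that starts mitosis, ran the other way, with 6.91 and 7.20 in the negative gate, 5.05 and 4.76 in the low gate and 5.89 and 6.01 in the high gate, a high minus low difference of 1.04 (adjusted p = 0.0398). The list had 0 calls by limma without negative replicate 1 or 2, and 36 and 37 of the 40 were higher at an unadjusted p under 0.05. Without those arrays the adjusted p of Mki67 was 0.147 and 0.114, and that of Kif11 was 0.071 and 0.0523. With the 4 positive arrays treated as a single group, 13 of the 40 were called, and Mki67, Foxm1 and Cdk1 were not (adjusted p = 0.0654, 0.139 and 0.111).

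Promoters of mitotic genes commonly carry a cell cycle homology region (CHR, searched as TTTGAA) and CCAAT boxes read by NF-Y. Both motifs were searched on both strands in RefSeq promoters of GRCm38.p6, from 250 bases before to 50 after the annotated start; on the opposite strand they read TTCAAA and ATTGG. Of the 33 mitotic genes with a promoter in the table, 78.8% held the CHR letters, 78.8% held an NF-Y box and 69.7% held both. Among 15563 tested genes with a promoter the shares were 15.2%, 38.3% and 6.12%, and over all 27025 listed promoters 18.1%, 37.9% and 7.12%. In other lists, CHR letters were found in 27.8% of 18 granule, 21.4% of 14 Paneth, 15.6% of 32 DNA replication and 0% of 21 respiratory promoters. Both motifs were found in 5.56%, 21.4%, 12.5% and 0% of them. The 591 promoters of genes called higher in the negative gate held CHR letters in 20.3%, and the 332 promoters of genes called lower held them in 9.94%. An NF-Y box lay upstream of CHR letters in 23 mitotic promoters, with a median of 32 bases for the smallest spacing in each promoter, and in 9 of them that smallest spacing was 25 to 35 bases. Letters that match a motif are a description and not evidence of binding. The 4 stretches below, from 150 bases before to 10 after the start, are those of the called mitotic genes with the smallest p that held both motifs in that window, and capitals mark the CHR letters and the NF-Y boxes. They are Kif11 (chr19:37376232-37376391, plus strand), Smc2 (chr4:52439071-52439230, plus strand), Ncapd2 (chr6:125191577-125191736, minus strand) and Cdk1 (chr10:69352903-69353062, minus strand).
Kif11: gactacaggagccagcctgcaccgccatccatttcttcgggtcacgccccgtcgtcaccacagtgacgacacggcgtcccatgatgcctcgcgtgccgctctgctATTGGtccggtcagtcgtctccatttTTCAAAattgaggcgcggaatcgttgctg
Smc2: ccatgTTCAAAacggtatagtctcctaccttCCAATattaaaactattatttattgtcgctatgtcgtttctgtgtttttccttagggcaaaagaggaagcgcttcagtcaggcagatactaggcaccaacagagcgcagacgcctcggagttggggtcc
Ncapd2: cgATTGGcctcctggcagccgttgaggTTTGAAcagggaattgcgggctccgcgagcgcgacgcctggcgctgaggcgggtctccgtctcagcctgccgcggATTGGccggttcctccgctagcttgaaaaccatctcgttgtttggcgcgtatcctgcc
Cdk1: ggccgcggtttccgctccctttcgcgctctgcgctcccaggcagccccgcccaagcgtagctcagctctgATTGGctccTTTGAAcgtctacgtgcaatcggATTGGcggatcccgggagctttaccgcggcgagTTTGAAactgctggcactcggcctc
The Cdk1 stretch held 2 CHR copies, and its NF-Y boxes stood 9 and 33 bases upstream of them. In Kif11, where 1 of each was found, they were 26 bases apart, and in Smc2 the CCAAT box followed the CHR letters.

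**Figure D2:**
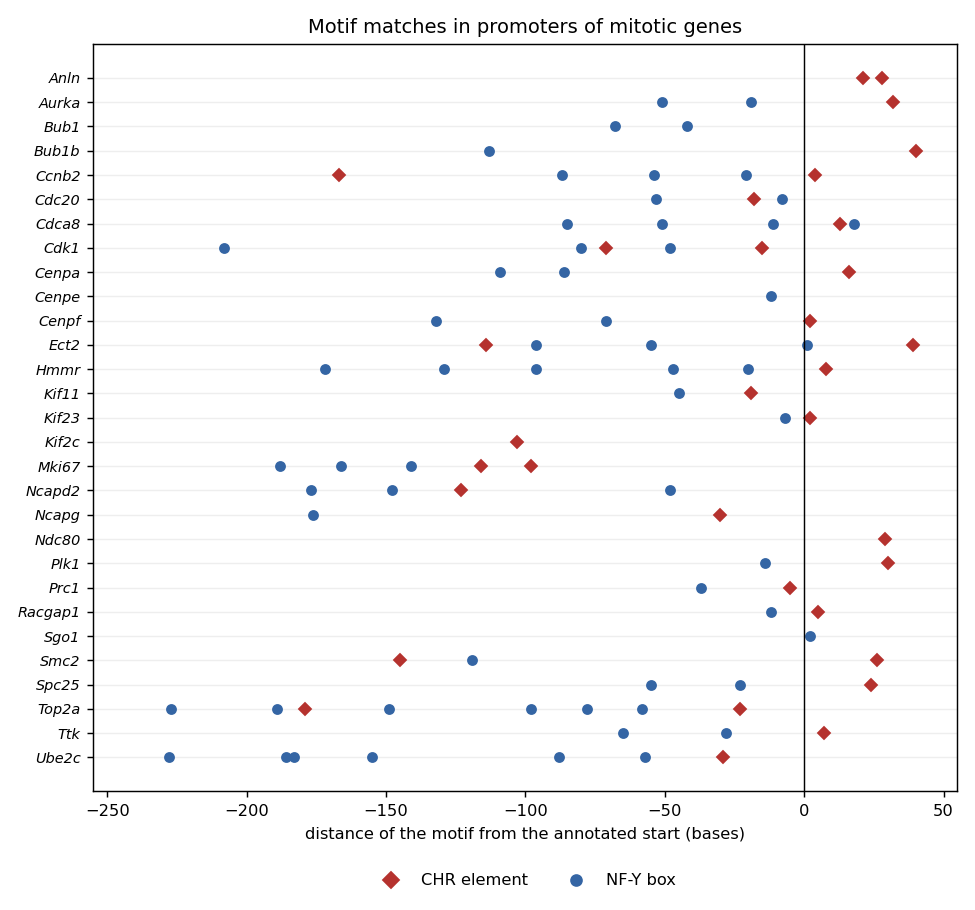
Positions of CHR letters (red diamonds) and NF-Y boxes (blue circles) on either strand in promoters of mitotic genes, as distance in bases from the annotated start. Rows are genes with at least 1 match, and most CHR matches lie near the start with an NF-Y box to the left of them.

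DNA replication genes were higher in the negative gate in smaller number. Of 39 measured (40 listed), 14 were called higher (35.9% against 3.6% of all genes) and 0 lower. The median difference was 0.95, and 30 were one-sided, where 12.8% of all genes were. Mcm6, a subunit of the replicative helicase, read 8.27 and 8.37 in the negative gate, 7.17 and 6.91 in the low gate and 6.38 and 6.53 in the high gate. All 4 positive arrays lay below, and the negative gate was 2.98-fold higher (limma, adjusted p = 0.00622). E2f8, a repressor that shuts down E2F targets late in S phase, was 3.39-fold higher and Prim1, the catalytic primase subunit, 3.10-fold higher (adjusted p = 0.00508 and 0.0129). Mcm5 and Pole, the leading-strand polymerase, differed by 1.12 ± 0.17 and 0.95 ± 0.16 (adjusted p = 0.0163 and 0.0228). The list had 0 calls without negative replicate 1 or 2 (22 and 23 at an unadjusted p under 0.05), 6 and 4 without reporter-low replicate 1 or 2, and 8 after quantile normalisation. The core of an E2F site (GCGGGAA, or TTCCCGC on the opposite strand) was found in 43.8% of the 32 replication promoters in the table, against 6.48% of tested genes and 4.66% of the whole table. The called members Prim1 and Uhrf1, the ones with the smallest p that carry it in the window, are shown. Prim1 lies at chr10:128015065-128015224, plus strand and Uhrf1, which reads newly replicated methylated DNA, at chr17:56303187-56303346, plus strand, with the core in capitals.
Prim1: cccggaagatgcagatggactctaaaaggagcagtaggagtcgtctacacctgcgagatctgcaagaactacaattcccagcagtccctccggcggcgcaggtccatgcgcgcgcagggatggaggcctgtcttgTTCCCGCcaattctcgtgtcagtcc
Uhrf1: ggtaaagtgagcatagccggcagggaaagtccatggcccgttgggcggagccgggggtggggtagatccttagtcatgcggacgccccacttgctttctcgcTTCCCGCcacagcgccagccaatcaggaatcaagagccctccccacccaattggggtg
Uhrf1 read 6.51 and 6.33 in the negative gate and 4.92 to 5.61 on the positive arrays, a 2.24-fold difference (limma, adjusted p = 0.0331; 0.262 and 0.186 without negative replicate 1 and 2, 0.0625 without reporter-low replicate 2 and 0.0538 without reporter-high replicate 2).

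Most of the respiratory chain genes were called higher in the negative gate. Of 29 measured nuclear genes for respiratory chain subunits (30 listed), 17 were called higher in the negative gate (58.6% against 3.6%) and 0 lower. All 29 were one-sided, where 12.8% of all genes were, with a median of 0.92 and a range from 0.41 to 1.66. Cyc1, cytochrome c1 of complex III, read 9.98 and 9.90 in the negative gate, 8.14 and 8.33 in the low gate and 8.79 and 8.31 in the high gate, and was 2.92-fold higher (limma, adjusted p = 0.0103). Uqcrc1 of the same complex was 2.59-fold higher, and Cox5a of complex IV 2.29-fold (adjusted p = 0.0151 and 0.0206). Ndufv2 of complex I and Atp5c1 of the ATP synthase differed by 1.3 ± 0.21 and 0.98 ± 0.17. After quantile normalisation 2 of the 29 were called, and Cox5a, Ndufv2 and Atp5c1 were not among them (adjusted p = 0.0575, 0.0671 and 0.0947). The count was 0 without either negative array (19 and 19 at an unadjusted p under 0.05), and without reporter-low replicate 1 or 2 it was 4 and 2. Of 30 measured ribosome biogenesis genes, 2 were called higher, 6.67% against 3.6% of all genes (Nop2, an rRNA methyltransferase, 1.99-fold, adjusted p = 0.0209, and Pes1, a factor of large subunit assembly, 2.08-fold, adjusted p = 0.0389), with a median of 0.47. Neither was called without negative replicate 1 (adjusted p = 0.196 and 0.30) or 2 (0.152 and 0.153). Myc, the transcription factor that drives this programme, read 9.68 and 10.30 in the negative gate and 7.97 to 9.51 on the positive arrays (difference 1.26 ± 0.30, adjusted p = 0.0626).

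Stem cell genes did not form a common pattern. Of 23 crypt base stem cell genes measured, 3 (13%, against 3.6% of all genes) were called higher in the negative gate. They were Slc14a1, Vdr and Cdk6, 0 were lower, and the median was 0.28. Slc14a1, a urea transporter, read 7.32 and 7.07 in the negative gate, 5.39 and 5.19 in the low gate and 4.75 and 5.25 in the high gate, a 4.15-fold difference (limma, adjusted p = 0.00515). Vdr, the vitamin D receptor, and Cdk6, a kinase of G1 phase, were 2.38-fold and 1.87-fold higher (adjusted p = 0.0232 and 0.0391). Olfm4, a secreted product of crypt base stem cells, read 10.81 and 10.95 against 8.91 to 10 on the positive arrays (1.3 ± 0.30, adjusted p = 0.0563). Lgr5, the Wnt-amplifying receptor that defines these cells, lay between the gates, with 6.37 and 6.71 in the negative gate, 6.06 and 6.04 in the low gate and 7.47 and 8.03 in the high gate. Stem cell genes had 0 calls without negative replicate 1 or 2 (5 and 5 higher, 2 and 4 lower at an unadjusted p under 0.05). Of 19 Notch pathway genes, 2 were called higher (10.5% against 3.6% of all genes) and 0 lower. The Notch target Hes1, a repressor of secretory fate, read 7.70 and 8.42 in the negative gate, 5.97 and 6.04 in the low gate and 7.53 and 7.71 in the high gate, so its high gate overlapped the negative gate. Its call (2.38-fold, adjusted p = 0.029) came with a high minus low difference of 1.61 (adjusted p = 0.0208). Nrarp, a feedback inhibitor of Notch, was one-sided, with 5.72 and 5.71 against 4.44 to 4.91 (2.07-fold, adjusted p = 0.0297). Neither Notch call held without negative replicate 1 (0.083 and 0.224), negative replicate 2 (0.195 and 0.209), or reporter-low replicate 1 (0.0781 and 0.0518) or 2 (0.0786 and 0.0843).

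Absorptive genes were higher in the negative gate. Of 34 measured enterocyte genes (36 listed), 14 were called higher and 0 lower, 41.2% against 3.6%, with a median of 0.90. Khk, the ketohexokinase that starts fructose breakdown, read 8.69 and 8.29 in the negative gate, 6.89 and 6.48 in the low gate and 6.75 and 6.61 in the high gate. Both positive gates were alike and below, at 3.5-fold (limma, adjusted p = 0.00702). Lct, the brush border lactase, was 3.2-fold higher and Slc9a3, the apical sodium-proton exchanger, 3.95-fold higher (adjusted p = 0.0138 and 0.0172). Dgat1, which makes triglyceride, and Npc1l1, the cholesterol uptake transporter, were 2.70-fold and 2.39-fold higher (adjusted p = 0.0109 and 0.0143). The other called members included large and small differences. Mttp, which loads lipid onto chylomicrons, was 2.93-fold higher. Anpep, an aminopeptidase, read 11.79 and 11.88 against 10.85 to 11.41 (1.61-fold, adjusted p = 0.0496; 0.0671 with the replicate number as a block and 0.121 after quantile normalisation). Slc15a1, the peptide transporter, read 8.17 and 8.14 in the negative gate, 8.37 and 7.61 in the low gate and 5.99 and 6.23 in the high gate, so its call rested on the high gate (adjusted p = 0.0468; 0.0525 with the replicate number as a block and 0.131 after quantile normalisation). The count was 0 without negative replicate 1 or 2 (19 and 20 at an unadjusted p under 0.05), 12 and 8 without reporter-low replicate 1 or 2, 12 and 9 without reporter-high replicate 1 or 2, and 7 after quantile normalisation.

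Carboxylesterases, which hydrolyse esters of drugs and lipids, included the largest differences of the absorptive and metabolic genes. Ces1f read 8.68 and 8.06 in the negative gate, 6.25 and 5.11 in the low gate and 5.56 and 4.69 in the high gate. The lowest negative array lay above the highest positive array, and the difference was 2.97 ± 0.39, or 7.83-fold (limma, adjusted p = 0.0122; 0.134 and 0.0999 without negative replicate 1 and 2). Ces2g was 6.18-fold higher (8.0 and 7.12 against 4.30 to 5.72, adjusted p = 0.0206). Ces2a was 2.99-fold higher and differed between the positive gates (high minus low -1.29, adjusted p = 0.0353). Ces1g read 5.48 and 5.21 against 3.76 to 4.37, and 1 of its 4 positive arrays was above background. Gstp1, a glutathione transferase, was 3.10-fold higher. Of 37 measured genes of the carboxylesterase and detoxification list, 9 were called higher (24.3% against 3.6%) and 2 lower (5.41% against 2.18%). The median was 1.02. The 2 that went the other way were Cyp4b1, a cytochrome P450, at 5.15 and 5.07 in the negative gate, 7.83 and 7.82 in the low gate and 5.09 and 5.12 in the high gate, and Ces3a, at 4.21 and 3.99, then 6.28 and 6.10, then 4.52 and 4.10. Both were raised in the low gate alone, so neither was one-sided (adjusted p = 0.00675 and 0.0222). There were 0 calls in either direction without negative replicate 1 or 2, and 10 and 22 members were higher at an unadjusted p under 0.05. Members of this family are close copies, and probes may read more than 1 of them.

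The 12 genes of each direction with the largest difference that both positive gates shared are plotted by array. In the higher direction the first was Igkv10-96, an immunoglobulin kappa variable segment, at 7.07 and 6.69 in the negative gate and 3.00 to 3.92 on the positive arrays. No positive array was above background, so the negative gate was higher by at least 2.65 on the log2 scale (limma, adjusted p = 0.00186). Jchain, the peptide that joins secreted IgA, read 6.93 and 7.04 against 3.74 to 4.22, again with no positive array above background, and was higher by at least 2.76 (adjusted p = 0.00107). Both calls held without any single array, with adjusted p up to 0.044 and 0.0328. Tkfc, which phosphorylates dihydroxyacetone and glyceraldehyde, was 5.32-fold higher (8.93 and 8.81 against 6.03 to 6.77), and Knl1, the kinetochore scaffold, 5.18-fold higher (7.23 and 7.37 against 4.45 to 5.19). Gstp3, a glutathione transferase, was 5.87-fold higher and H2ac4, a replication-dependent histone, 6.51-fold higher. Reg3a, a secreted lectin of the antimicrobial Reg family, read 7.49 and 6.59 in the negative gate, 4.27 and 3.23 in the low gate and 5.25 and 4.25 in the high gate. Il18, an epithelial cytokine, read 8.56 and 7.42 against 4.85 to 6.24 and was 5.27-fold higher (adjusted p = 0.0309). Il18 was called without reporter-low replicate 1 and not without any other single array (adjusted p = 0.0518 to 0.239). Of the others, Tkfc, Knl1, Gstp3, H2ac4 and Reg3a, none was called without negative replicate 1 or 2 (adjusted p = 0.0749 to 0.198). Gstp, Reg3 and histone genes have near copies, so their probes may read several members.

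**Figure D3:**
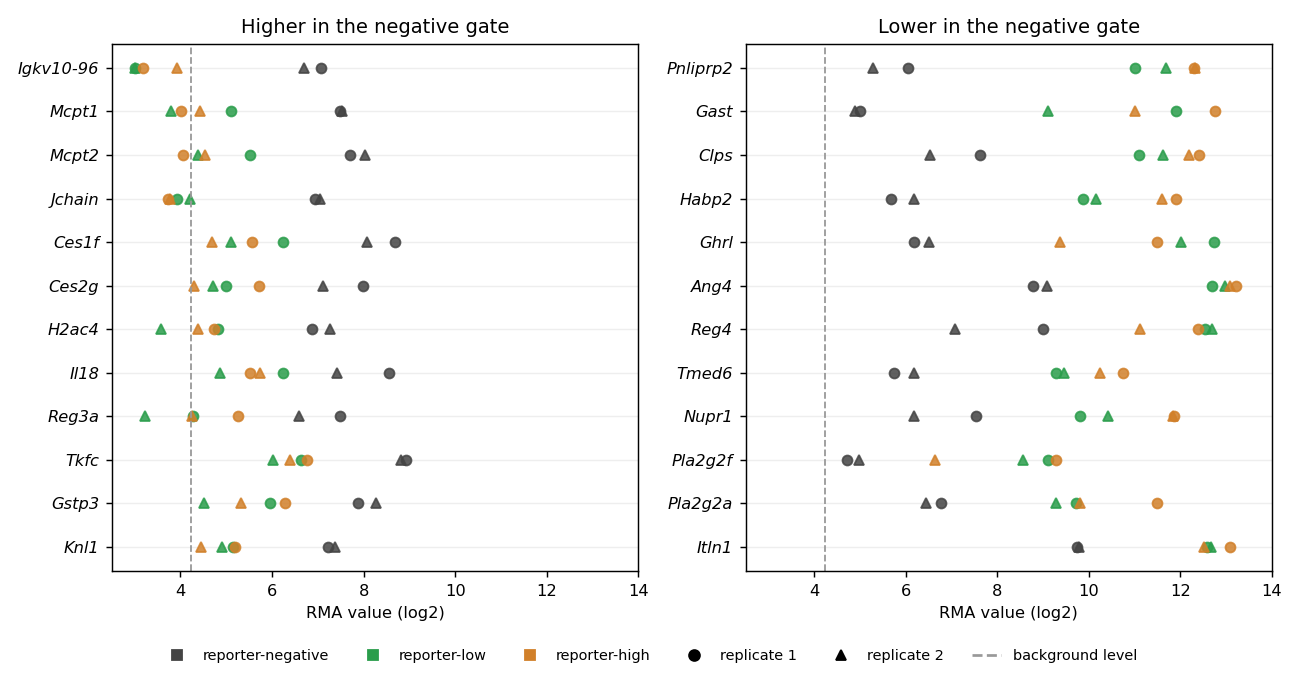
RMA values on the log2 scale for the 12 genes with the largest shared difference in each direction, with circles for replicate 1, triangles for replicate 2 and a dashed line at the background level of 4.23. In the left panel the 2 dark negative points stand right of all 4 positive points for every gene. In the right panel they stand left of them, by up to 76.4-fold for Gast. Only genes with all 4 positive arrays on 1 side of both negative arrays could be picked, so this separation follows from the choice.

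Mcpt1 and Mcpt2 encode the mast cell proteases of the gut mucosa. Mcpt2 read 7.71 and 8.02 in the negative gate, 5.52 and 4.38 in the low gate and 4.06 and 4.54 in the high gate. Mcpt1 read 7.49 and 7.53, then 5.11 and 3.79, then 4.01 and 4.43. The negative arrays were higher by 3.24 ± 0.34 and 3.17 ± 0.36, or 9.47-fold and 9.03-fold (limma, adjusted p = 0.00589 and 0.00723). The adjusted p was 0.0814 and 0.095 without negative replicate 1, and 0.0931 and 0.104 without negative replicate 2. The other mast cell genes did not go with them. Of 13 measured, 2 were called higher and 1 lower (15.4% and 7.69%, against 3.6% and 2.18% of all genes). The receptor genes Fcer1a and Ms4a2, the tryptases Tpsab1 and Tpsb2, the chymase Cma1, the granule protease Mcpt4 and the carboxypeptidase Cpa3 were below background on all 6 arrays. Gata2, a transcription factor of the lineage, read 4.49 to 4.69 on all arrays. Kit, the stem cell factor receptor, which Paneth-like secretory cells also carry, went the other way, at 6.43 and 6.11 in the negative gate, 8.38 and 8.31 in the low gate and 8.94 and 8.55 in the high gate (4.83-fold lower in negative, adjusted p = 0.00367; 0.0583 and 0.0695 without negative replicate 1 and 2). The summed log2 value of the list was 63.7 and 65.2 in the negative gate, 62.3 and 60.1 in the low gate and 57.6 and 59.9 in the high gate. Mcpt1 and Mcpt2 are near copies, and the part of either transcript in the probes of the other was not tested.

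Paneth cell genes were lower in the negative gate. The list holds antimicrobial proteins and enzymes secreted at the crypt base, and also regulators, surface proteins and a signal of Paneth cells. Of 18 measured (26 listed), 13 were called lower and 1 higher, 72.2% against 2.18% of all genes, with a median of -2.08. The 13 included Sox9, Kit, Cd24a, Nupr1 and Wnt3, which are not secreted antimicrobials or secreted enzymes. Sox9 and Kit were also counted in other lists. Pnliprp2, a lipase-related protein, read 6.06 and 5.28 in the negative gate, 11 and 11.68 in the low gate and 12.30 and 12.31 in the high gate. The gates did not overlap, and the negative gate was 71.2-fold lower (limma, adjusted p = 0.000964). Habp2, a secreted serine protease, read 5.68 and 6.18, then 9.88 and 10.16, then 11.89 and 11.60 in the same order. Its high gate exceeded the low gate by 1.73 (adjusted p = 0.0122), and the negative gate was 31.0-fold below their mean. Clps, the lipase cofactor colipase, was 26.9-fold lower and Ang4, a microbicidal angiogenin, 16.5-fold lower. Itln1, a lectin that binds microbial sugars, read 9.73 and 9.78 in the negative gate and 12.51 to 13.09 on the positive arrays, 7.76-fold lower (adjusted p = 0.00186). Its adjusted p was 0.0507 without negative replicate 1 and 0.0477 without negative replicate 2. Lyz1, the Paneth lysozyme, read 11.57 and 11.08 in the negative gate and 13.13 to 13.33 in the positive gates (3.72-fold lower, adjusted p = 0.00566). Mmp7, which activates defensins, was 7.40-fold lower, and Defa24, a defensin with many near copies, 2.59-fold lower. Wnt3, the Paneth signal to stem cells, was not above background in the negative gate (3.90 and 3.78) and read 4.93 to 5.80 in the positive gates, higher there by at least 1.15 (adjusted p = 0.022). The member that went the other way was Fzd5, a Wnt receptor, at 6.74 and 7.41 against 5.63 to 6.24 (2.33-fold higher in negative, adjusted p = 0.0372; 0.11 and 0.264 without negative replicate 1 and 2, 0.0839 and 0.104 without reporter-low replicate 1 and 2). Calls lower numbered 6 without negative replicate 1 and 7 without negative replicate 2. The calls of Lyz1, Defa24 and Wnt3 were lost without either (adjusted p = 0.0589 to 0.179), and that of Wnt3 also without reporter-low replicate 1 or 2 (0.0569 and 0.0668).

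Hormones, phospholipases and other genes of the 12 largest shared differences were lower in the negative gate as well. Gast, the hormone gastrin, had the largest difference from the mean of both positive gates, at 4.99 and 4.88 in the negative gate, 11.89 and 9.11 in the low gate and 12.76 and 11.01 in the high gate, 76.4-fold (limma, adjusted p = 0.0108). Replicates differed by 2.78 in the low gate, and the call was lost without either negative array (adjusted p = 0.11 and 0.117). Ghrl, the hormone ghrelin, read 6.18 and 6.51, then 12.73 and 12, then 11.48 and 9.38, and was 33.2-fold lower in the negative gate (adjusted p = 0.00672; 0.0934 and 0.0914 without negative replicate 1 and 2). Reg4, a secreted lectin of deep crypt secretory and endocrine cells, was 17.6-fold lower, with its 2 negative arrays apart at 9.0 and 7.08 (adjusted p = 0.0127; 0.0914 without negative replicate 2). Nupr1, a stress-induced nuclear protein, was 17.5-fold lower and Tmed6, a cargo receptor of the early secretory pathway, 15.7-fold lower. Both were called without any single array. Pla2g2a, a phospholipase gene of Paneth cells, read 6.77 and 6.45 against 9.28 to 11.48, and Pla2g2f 4.71 and 4.99 against 6.63 to 9.27 (11-fold and 11.7-fold lower, adjusted p = 0.0109 and 0.0296). Their adjusted p without negative replicate 1 and 2 was 0.105 and 0.124 for Pla2g2a and 0.224 and 0.184 for Pla2g2f.

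Enteroendocrine genes were lower in the negative gate as well, but the positive gates were far apart. Of 24 measured genes of hormone granules (25 listed), 20 were called lower in the negative gate and 0 higher, with a median of -2.35. The called share was 83.3%, against 2.18% of all genes. The median was 3.93 in low minus negative and 0.83 in high minus negative, and 23 of the 24 were called lower in high minus low. Chga, the granule core protein chromogranin A, read 6.03 and 6.25 in the negative gate, 12.26 and 12.85 in the low gate and 8.20 and 7.17 in the high gate. All positive arrays lay above, the low gate by far the most, and the call had adjusted p = 0.00314 (limma; 0.0659 and 0.0571 without negative replicate 1 and 2). Scg2, a granin, was not above background in the negative gate (3.67 and 4.11), read 9.77 and 9.35 in the low gate and 5.02 and 4.97 in the high gate, and was lower in the negative gate by at least 3.05 (adjusted p = 0.00121). Pcsk1, a convertase that cleaves prohormones, read 4.73 and 4.94, then 9.70 and 10.13, then 5.91 and 5.39. Scgn, a calcium sensor, and Ptprn2, a granule membrane protein, differed likewise, with low minus negative at 5.52 and 3.83 and high minus negative at 0.87 and 2.01. With the 4 positive arrays as a single group 0 of the 24 were called by limma (9 at an unadjusted p under 0.05), where the gap between the gates counts as spread. Called members numbered 3 without negative replicate 1 and 3 without negative replicate 2.

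The cAMP response element core (searched as TGACGT, on both strands) is known from granule gene promoters. It was found in 27.8% of the 18 granule gene promoters in the table, against 9.31% of tested genes and 7.64% of the whole table. The core was also found in 25% of the DNA replication promoters. Scg2 (chr1:79440017-79440176, minus strand) and Pcsk1 (chr13:75089707-75089866, plus strand) are shown because they are the called members with the smallest p that hold it, with the matches in capitals.
Scg2: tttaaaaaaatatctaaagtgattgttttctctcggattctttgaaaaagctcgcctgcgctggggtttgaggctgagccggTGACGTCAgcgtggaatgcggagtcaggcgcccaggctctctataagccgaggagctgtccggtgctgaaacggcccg
Pcsk1: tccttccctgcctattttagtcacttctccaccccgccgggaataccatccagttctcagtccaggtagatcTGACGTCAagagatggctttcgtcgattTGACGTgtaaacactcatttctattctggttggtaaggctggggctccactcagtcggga
The 8 capitals in a row in each stretch are matches on both strands that overlap. Pcsk1 held a further match closer to the start.

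Of 16 measured hormone genes, 10 (62.5%, against 2.18% of all genes) were called lower in the negative gate, with a median of -3.23. Gip, the K cell hormone, read 7.29 and 6.56 in the negative gate, 13.47 and 13.25 in the low gate and 8.55 and 8.80 in the high gate, and was called without any single array (limma, adjusted p = 0.00116). Sst, somatostatin, read 6.74 and 6.26, then 12.70 and 11.74, then 8.56 and 8.65 (adjusted p = 0.00261; 0.0405 and 0.0516 without negative replicate 1 and 2). Gcg, proglucagon, read 6.15 and 6.43, then 12.65 and 12.70, then 6.59 and 7.56, and Pyy, peptide YY, 5.14 and 4.85, then 11.79 and 11.66, then 7.42 and 6.04. Neither passed without negative replicate 1 (adjusted p = 0.0618 and 0.0659) or 2 (0.0516 and 0.071). Nts, neurotensin, was not above background in the negative gate (3.5 and 4.01), read 11.47 and 10.96 in the low gate and 3.94 and 4.32 in the high gate, so it was raised in the low gate alone and was not one-sided. Among these hormones only Gast had a higher mean in the high gate than in the low gate, a difference of 1.39 that did not pass the test (adjusted p = 0.385). Of 21 measured enteroendocrine transcription factor genes, 10 (47.6%, against 2.18%) were called lower in the negative gate, with a median of -0.91. Pax6 read 4.37 and 4.21, then 8.55 and 8.5, then 4.86 and 5.39, and Isl1 4.05 and 3.59, then 8.90 and 8.36, then 4.23 and 5.0. Rfx6 and Neurod1 were not above background in the negative gate, and their high arrays (3.72 to 4.14) did not clear it either. Counts without negative replicate 1 and 2 were 5 and 3 for hormones and 2 and 2 for these factors, and with the positive arrays as 1 group they were 2 and 0, with 5 factors at an unadjusted p under 0.05.

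**Figure D4:**
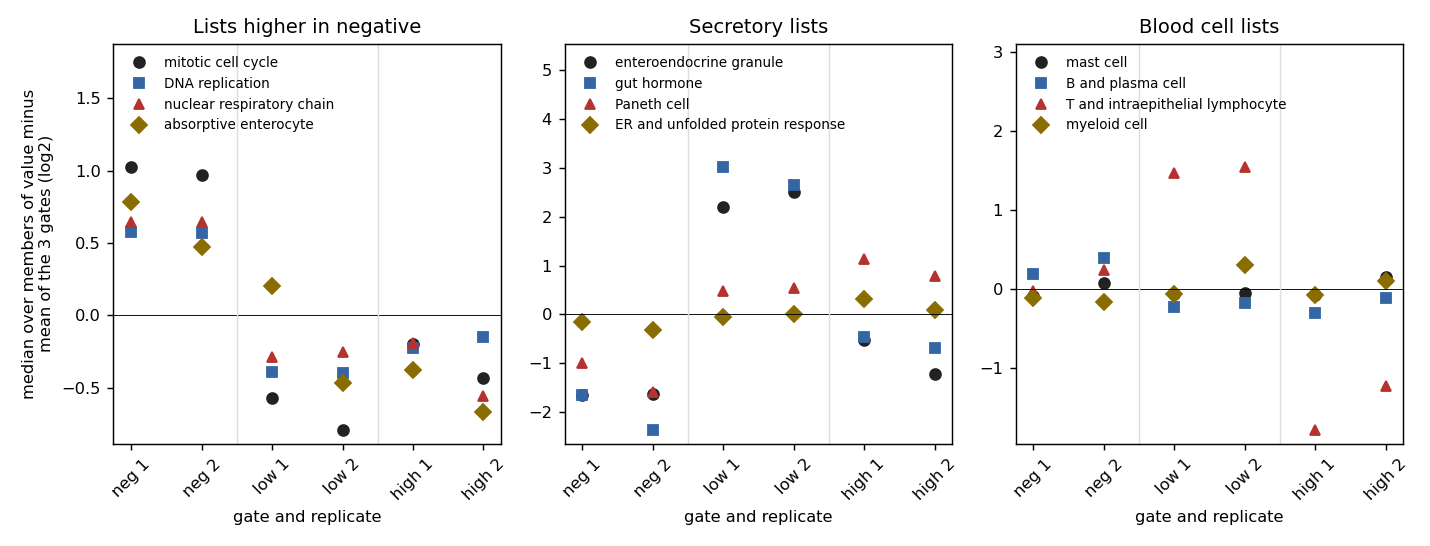
Median over the members of a list of each value minus the mean of the 3 gate means, on the log2 scale, for the 6 arrays in the order negative, reporter-low and reporter-high. Mitotic genes sit at 1.02 and 0.97 on the negative arrays and below 0 on all 4 positive arrays; Paneth genes sit below 0 on the negative arrays and above 0 on all positive arrays; granule genes reach 2.20 and 2.5 on the low arrays only, and lymphocyte genes are high on the low arrays and low on the high arrays.

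A few genes of secretory fate and of the secretory pathway were lower in the negative gate. Of 14 secretory fate transcription factor genes, 3 (21.4%, against 2.18% of all genes) were called lower in the negative gate (Bhlha15, Sox9 and Foxa3). Bhlha15, the factor that scales up the secretory apparatus, read 5.71 and 5.66 in the negative gate, 7.47 and 7.95 in the low gate and 9.43 and 9.81 in the high gate. The gates were ordered without overlap, with 7.88-fold lower signal in the negative gate (limma, adjusted p = 0.00191) and high minus low at 1.92 (adjusted p = 0.00769). Its adjusted p was 0.0507 without negative replicate 1 and 0.0491 without negative replicate 2. Sox9, a crypt base factor that Paneth cells need, read 7.10 and 7.07, then 7.44 and 7.46, then 8.94 and 8.83 (2.12-fold, adjusted p = 0.0133). Foxa3 read 7.91 and 7.91, then 8.12 and 8.32, then 9.41 and 9.32 (1.84-fold, adjusted p = 0.0269). Neither was called without negative replicate 1 (0.145 and 0.214) or 2 (0.14 and 0.202), and Foxa3 was also lost without reporter-low replicate 1 or 2 (0.0603 and 0.0853). Of 31 genes of the endoplasmic reticulum and the unfolded protein response, 5 were called lower (16.1% against 2.18% of all genes) and 0 higher. The median was -0.30. Ern1, the sensor that splices Xbp1, read 6.19 and 6.26, then 7.15 and 7.23, then 8.15 and 7.85 (2.59-fold, adjusted p = 0.00918). Sel1l and Herpud1, of the pathway that exports misfolded proteins for degradation, were 2.71-fold and 2.69-fold lower, and the cochaperones Dnajb9 and Dnajc3 2.32-fold and 1.9-fold lower. All 5 had every positive array above both negative arrays, and the list had 0 calls without negative replicate 1 or 2 (8 and 8 at an unadjusted p under 0.05).

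Goblet and tuft cell genes did not separate the gates as groups. Of the tuft list, 6.67% was called higher in the negative gate and 0% lower, against 3.6% and 2.18% of all genes. Of 13 goblet genes, 2 were called higher in the negative gate and 2 lower (15.4% each, against 3.6% and 2.18% of all genes). Clca1, a mucus metalloprotease, read 11.41 and 11.23 in the negative gate and 9.13 to 10.18 on the positive arrays, and Zg16, a lectin of mucus granules, 12.25 and 12.04 against 9.52 to 10.99 (3.29-fold and 3.76-fold; limma, adjusted p = 0.00913 and 0.0388). Ccl6, a chemokine, read 9.05 and 9.0 in the negative gate, 10.36 and 10.64 in the low gate and 12.06 and 11.54 in the high gate, and Sytl2, a vesicle docking protein, was 3.04-fold lower (adjusted p = 0.00508 and 0.0247). None of the 4 was called without negative replicate 1 (adjusted p = 0.0814 to 0.27) or 2 (0.0898 to 0.213). Of 15 tuft genes, 1 was called, Trpm5, the channel of tuft cell taste signalling, at 5.0 and 4.71 in the negative gate with no positive array above background (higher by at least 0.63, adjusted p = 0.0387; 0.298 and 0.174 without negative replicate 1 and 2, 0.0923 and 0.0609 without reporter-low replicate 1 and 2, and 0.0585 without reporter-high replicate 2).

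Calls among genes of blood-derived cells differed by list. Of 14 B and plasma cell genes, 4 were called higher in the negative gate (28.6% against 3.6% of all genes) and 0 lower. The median was 0.51. Besides Jchain these were Pou2af1, a B cell coactivator (6.46 and 6.28 against 4.36 to 5.77), Cd79a and Cd79b, the signalling chains of the B cell receptor (4.46 and 5.03 against 3.06 to 3.62, with no positive array of Cd79a above background, and 6.73 and 7.65 against 5.27 to 6.27; limma, adjusted p = 0.0143, 0.0216 and 0.0323). Without negative replicate 1 or 2, only Jchain of the 4 was called, and the adjusted p of the other 3 lay between 0.071 and 0.178. Igha, the IgA heavy chain, read 5.01 and 6.01 against 4.2 to 4.56 (adjusted p = 0.0867). Of 8 MHC class II genes, 3 were called higher (Cd74, H2-Ab1 and H2-Eb1, 2.63-fold, 2.89-fold and 2.77-fold), with a median of 1.0, and none of the 3 was called without negative replicate 1 or 2 (adjusted p from 0.083 to 0.179). The called share of the MHC class II list was 37.5%, against 3.6% of all genes. Epithelial cells of the crypt can also carry these genes. Of 20 T and intraepithelial lymphocyte genes, 1 was called higher, the surface protein gene Thy1 (8.0 and 8.21 against 6.02 to 7.07, adjusted p = 0.0289; 0.186 and 0.219 without negative replicate 1 and 2). That single call was 5% of the list, against 3.6% of all genes. The positive gates stood on either side of the negative gate for this list, with a median of 1.46 in low minus negative and -1.54 in high minus negative, and 15 of the 20 were called lower in high minus low. Of 19 myeloid genes, 3 were called lower, Lyz2 (7.75 and 7.23 against 8.63 to 9.39), C1qb and C1qa (adjusted p = 0.0273, 0.0379 and 0.0461; 0.127 to 0.343 without negative replicate 1 or 2). These 3 were 15.8% of the myeloid list, against 2.18% of all genes. The probes of Lyz2 may read its near copy Lyz1. Of 21 genes of stroma, vessel, muscle, glia and red cells, 0 were called by limma, against 5.78% of all genes. By limma, 1 (Pdgfra, a receptor of fibroblasts) had an unadjusted p under 0.05, and 14 of the 21 were above background in a gate mean. The part of blood-derived cells in the epithelial differences was not tested.

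Of 24 immediate early and heat shock genes, which respond quickly to handling, 5 were called lower in the negative gate and 0 higher. These 5 were 20.8%, against 2.18% of all genes, and the list median was -0.31. At an unadjusted p under 0.05, 11 were lower and 4 higher. The count of 5 was 2 with centred arrays, 2 with a trended robust prior and 1 without either reporter-low array. Btg2, an antiproliferative early gene, read 8.49 and 8.74 in the negative gate, 9.92 and 10.18 in the low gate and 10.04 and 10.12 in the high gate (2.73-fold, limma, adjusted p = 0.0086; 0.114 and 0.0931 without negative replicate 1 and 2). Fosb, Jun and Egr1, transcription factors induced within minutes, were 2.10-fold, 1.71-fold and 1.76-fold lower, and Jun and Egr1 did not pass with centred arrays (adjusted p = 0.0507 and 0.0572). Nr4a2, an early nuclear receptor, was raised in the low gate alone (8.85 and 8.99, against 6.47 and 7.24 in the negative gate and 6.95 and 7.0 in the high gate), and it did not pass with centred arrays (adjusted p = 0.0569). None of the 5 was called without negative replicate 1 or 2 (adjusted p = 0.0931 to 0.299). Of 22 Flattop and planar cell polarity genes, 0 were called by limma, against 5.78% of all genes. In a gate mean, 16 of the 22 were above background. By limma, 3 had an unadjusted p under 0.05, all lower in the negative gate (Ankrd6, Celsr3 and Prickle1), and that share was not counted over all genes. They included Celsr3, an atypical cadherin, at 3.89 and 3.83 against 4.2 to 4.81 (adjusted p = 0.16) and Prickle1, a cytoplasmic core component, at 3.96 on both negative arrays against 4.31 to 4.62 (adjusted p = 0.213), both close to background.

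**Figure D5:**
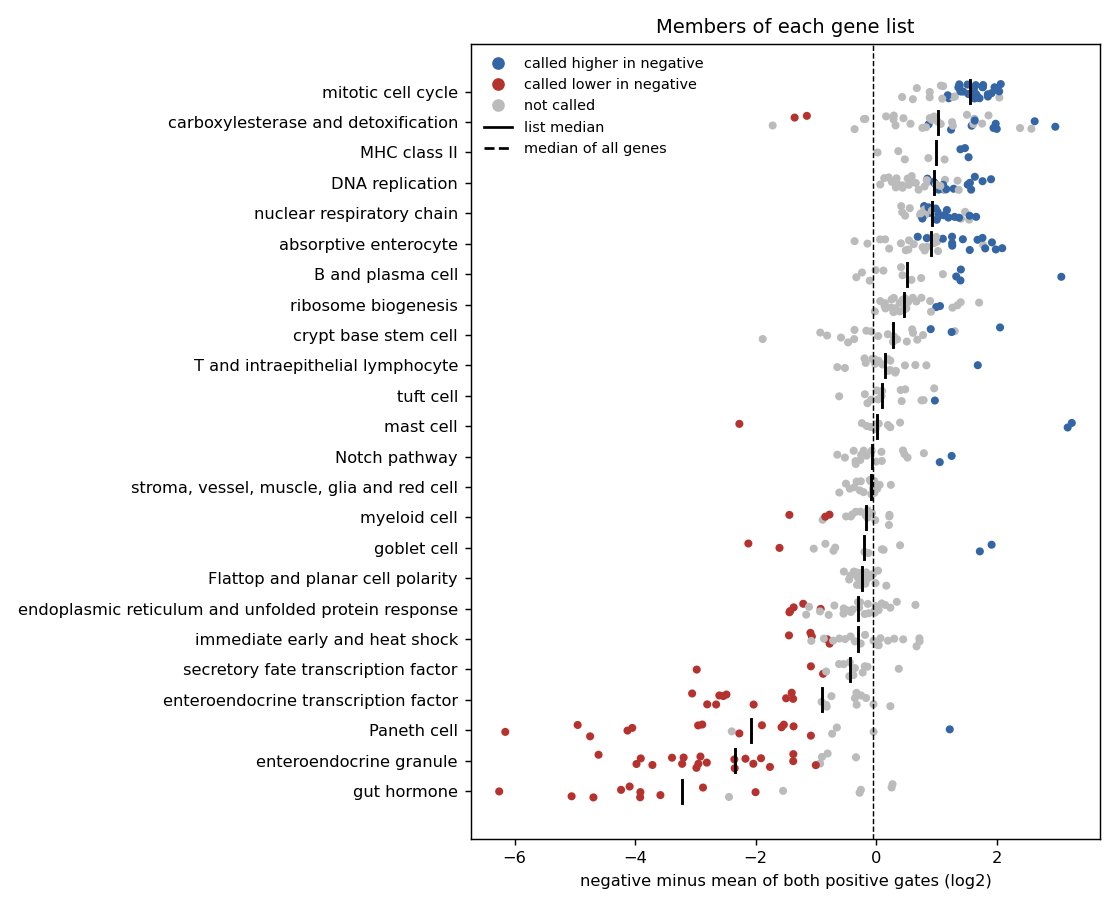
Negative minus the mean of both positive gates on the log2 scale for every member of each list, ordered by list median (black bars), with the median over all genes (-0.05) as a dashed line. Blue and red points passed the test and grey points did not; mitotic, carboxylesterase, respiratory and enterocyte lists sit to the right and hormone, granule and Paneth lists to the left.

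Among one-sided genes, those whose positive gates also differed from each other were few in the higher direction. Rbp7, a retinol-binding protein, read 8.95 and 9.05 in the negative gate, 6.29 and 6.24 in the low gate and 7.73 and 8.18 in the high gate, with high minus low at 1.69 (limma, adjusted p = 0.00782). Adgrg7, an adhesion receptor, had the same order, at 9.52 and 9.20, then 6.97 and 6.73, then 8.15 and 8.49. Kcnn4, a calcium-activated potassium channel of secreting epithelia, read 7.96 and 8.0, then 4.91 and 4.85, then 5.77 and 5.86, and was 6.2-fold higher in the negative gate (adjusted p = 0.00113, and at most 0.033 without any single array). Rbp7 and Adgrg7 did not pass without negative replicate 1 (adjusted p = 0.0814 and 0.096) or 2 (0.0898 and 0.0774). In the lower direction Cpe, the carboxypeptidase that trims prohormones, was not above background in the negative gate (4.09 and 4.04), read 11.34 and 11.06 in the low gate and 7.42 and 4.87 in the high gate, and was lower in the negative gate by at least 4.45. Cck, cholecystokinin, read 6.50 and 3.97, then 12.09 and 11.83, then 8.28 and 7.52. The low gate was thus the brightest for both, and the 2 negative arrays of Cck lay on either side of background. Cpe did not pass without negative replicate 1 or 2 (adjusted p = 0.123 and 0.131). In 642 genes the low arrays lay above and the high arrays below both negative arrays, and in 930 genes the reverse held; high minus low was called in 346 and 68 of them. These genes are outside the one-sided sets, and in them the mean of both positive gates averages over opposite differences.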

How the data were processed

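RNA of FACS-sorted small intestinal crypt cells was extracted with a miRNeasy column kit with DNase treatment, amplified with the Ovation Pico WTA System V2 and biotin-labelled, per the labels' protocols, and measured on 1-colour Affymetrix arrays. The authors deposited log2 values made with RMA in Affymetrix Expression Console 1.3.0.187, per the submitters' processing notes; its settings were not given in the sources used here. Columns of the other 12 samples held no values and were not analysed here.

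Of 35556 probe sets, 21789 carried 1 gene symbol, 1621 several and 12146 none. The probe set with the highest mean over the 6 arrays stood for each of 19938 genes (999 had several). Symbols were updated through 21698 matched gene identifiers. The values were used without further scaling. limma 3.58.1 in R 4.3.3 fitted the 3 gates (2 arrays each, 3 residual degrees of freedom) with lmFit and eBayes, and p-values were adjusted by Benjamini-Hochberg over all 19938 genes at a threshold of 0.05. The contrast was the negative gate minus the equal-weight mean of the low and high gates. Where no array of one side was above background, differences are given against the background level as "at least". Tables and figures used Python 3.11.15, pandas 2.3.3 and matplotlib 3.10.9. The fits were tested on simulated data.

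Named genes were Cfap126, Mki67, Mcpt2 and Ces1f; among called one-sided genes with a gate mean above background, predicted genes left out, the 12 per direction with the largest difference that both positive gates reached; up to 5 members of each list with the smallest p; called members running against their list; and the 3 per direction with the largest difference among one-sided genes whose positive gates differed. Cdk1, Uhrf1, Mttp, Anpep, Slc15a1, Lyz1, Mmp7, Defa24, Wnt3, Gata2 and the genes of the closing observations were named after their values were seen. The members, gene lists and tests were chosen with earlier results of these data known. Alternatives covered scaling, probe set choice, background filters, the prior, array weights, 1 positive group, the replicate block and leaving out each array.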

Additional observations from a re-analysis of the deposited data

Results flagged for a closer look

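A selection of 16 genes is given here in which the reporter-low and reporter-high gates differed by the test of high minus low itself (limma, adjusted p under 0.05). Over all genes that test called 978 (4.91%), and other genes described above were among them. In 6 of the 16 both positive gates lay on the same side of the negative gate. High minus low was 1.69 ± 0.21 (SE) for Rbp7, 1.47 ± 0.22 for Adgrg7 and 0.94 ± 0.17 for Kcnn4, all higher in the negative gate than in either. It was 1.73 ± 0.24 for Habp2, -4.06 ± 0.74 for Cck and -5.05 ± 0.72 for Cpe, all lower in the negative gate than in either. The adjusted p of these 6 ran from 0.00782 (Rbp7) to 0.032 (Kcnn4).

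The other 10 had their positive gates on opposite sides of the negative gate, so the average of both positive gates mixed opposite differences. Negative minus positive ran from -0.62 (Atoh1) to 0.65 (Nkg7) and was not called for any of the 10. Of these, 5 genes of T or natural killer cells and other leukocytes were highest in the low gate and lowest in the high gate. High minus low was -5.02 for Nkg7, a protein of cytotoxic granules, -4.61 for Rgs1, a regulator of chemokine signalling in lymphocytes, -4.37 for Prkch, a protein kinase C isoform, -4.31 for Cd3g, a chain of the T cell receptor complex, and -4.23 for Itgae, the integrin that anchors intraepithelial lymphocytes. Cd3g read 9.32 and 9.32 in the negative gate, 10.92 and 11.08 in the low gate and 6.76 and 6.61 in the high gate.

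The remaining 5 were highest in the high gate and lowest in the low gate. High minus low was 3.09 for Atoh1, the transcription factor that commits cells to the secretory branch, 2.93 for Acnat1, an acyltransferase, 2.20 for Creb3l4, a membrane-bound transcription factor of secretory cells, 2.17 for Krt23, a keratin, and 2.07 for Tst, a mitochondrial sulfurtransferase. Atoh1 read 8.31 and 8.54 in the negative gate, 7.01 and 8.0 in the low gate and 10.38 and 10.80 in the high gate.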

How the results depend on the processing

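No named call changed its sign under any alternative. Of 107 called genes that the naming rule picked, 103 kept the call with arrays centred on their medians, 93 after quantile normalisation, 100 with a trended robust prior, 106 with either background filter, 107 with either other probe set rule or with array weights, and 35 with the 4 positive arrays as 1 group. Without negative replicate 1, 19 kept it, and without negative replicate 2, 19. Of 15 called genes given with values outside that rule, 12 kept the call after quantile normalisation, 8 with 1 positive group and 1 without either negative array, and Anpep lost it with both background filters and with the lowest probe set. The labels do not say whether the replicate numbers pair the arrays. Deviations of same-numbered arrays correlated at 0.0788 to 0.103 between gates over all genes, and the medians of the enterocyte and carboxylesterase lists were higher on replicate 1 than on replicate 2 in all 3 gates. A fit with the replicate block called 810 genes higher and 452 lower and kept 104 of the 107 calls and 13 of the 15.

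Of the 717 genes called higher in the negative gate, the count was 397 after quantile normalisation, 141 with 1 positive group, 75 at adjusted p under 0.01 and 252 where each positive gate was called on its own; leaving out 1 array gave 3 to 1250. For the 435 lower, 1 positive group gave 46, the stricter threshold 112, both gates 92 and leaving out 1 array 27 to 623. With 1 positive group the lists gave 13 (mitotic), 2 (DNA replication), 2 (respiratory), 3 (enterocyte), 0 (granule), 2 (hormone) and 0 (enteroendocrine factor). At adjusted p under 0.01 they gave 10 (mitotic), 2 (DNA replication), 0 (respiratory) and 1 (enterocyte). After quantile normalisation they gave 8 (DNA replication), 2 (respiratory) and 7 (enterocyte). With both gates called they gave 5 (DNA replication), 3 (respiratory), 6 (enterocyte), 1 (granule), 4 (hormone) and 1 (enteroendocrine factor), and 10 respiratory genes were at least 2-fold. Leaving out 1 array gave 0 to 33 mitotic, 0 to 16 replication, 0 to 21 respiratory, 0 to 12 enterocyte, 3 to 20 granule, 3 to 11 hormone, 2 to 10 enteroendocrine factor and 6 to 13 Paneth genes.

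By gate means in place of arrays, 3969 genes had lower and 4255 higher positive gates; with centred arrays 1287 had higher positive arrays, and without 1 array the counts were 2936 to 3975 and 2817 to 4471, fewer arrays being easier to keep on 1 side. Array weights (0.54 in the high gate, 1.45 in the negative gate) gave 2150 genes in low minus negative, 620 in high minus negative and 607 in high minus low, and quantile normalisation gave 621 in high minus negative. Leaving out 1 array gave 187 to 1761, 13 to 1919 and 381 to 1739 genes in these comparisons. Genes near background have their differences bounded by it, and 2 arrays per gate limit every value.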

Other observations

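Further gene families were counted after their values had been seen, so the counts are descriptions. The transport family shares Slc9a3 with the enterocyte list, and its member Kcnn4 was described above. Of 16 genes for transport of fluid, ions and bile acids, 11 were called higher in the negative gate and 0 lower (limma, adjusted p under 0.05), with a median difference of 1.73, where 3.6% of all genes were called higher. The count was 7 after quantile normalisation and 1 without either negative array. Cftr, the chloride channel of crypt secretion, read 7.44 and 7.56 in the negative gate, 4.81 and 5.76 in the low gate and 5.18 and 5.39 in the high gate, a 4.64-fold difference (adjusted p = 0.0102). Slc51a and Slc51b, both subunits of the basolateral bile acid exporter, were 4.55-fold and 5.39-fold higher, and Car9, a surface carbonic anhydrase, 5.54-fold higher (7.91 and 7.77 against 4.89 to 5.87). Slc26a3, the apical chloride-bicarbonate exchanger, was 4.61-fold higher (adjusted p = 0.0437), and its call was lost without reporter-high replicate 2 (0.0783). None of these 5 was called without negative replicate 1 or 2 (adjusted p = 0.0637 to 0.28).

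Smaller shares were called in 4 other families. Over all genes, 3.6% were called higher and 2.18% lower. Of 77 mitochondrial ribosome genes 17 were called higher and 0 lower, with a median of 0.80. The counts were 8 of 30 histone genes (median 0.61), 7 of 40 proteasome genes (median 0.72) and 4 of 13 citric acid cycle genes (median 0.98), again with 0 lower. In all 4 families the count was 0 by limma without negative replicate 1 or 2, with 7 to 35 members higher at an unadjusted p under 0.05. The proteasome count was also 0 without reporter-low replicate 1 or 2 and after quantile normalisation (25, 21 and 16 at an unadjusted p under 0.05), and 2 with a trended robust prior. After quantile normalisation 8 mitochondrial ribosome, 4 histone and 3 citric acid cycle genes were called. Without reporter-low replicate 1 and 2 the counts were 8 and 5, 5 and 4, and 2 and 2, and without reporter-high replicate 1 they were 30, 12 (and 1 histone gene lower) and 9, with 18 for the proteasome. The citric acid cycle count was 7 without reporter-high replicate 2. Idh3a, a subunit of mitochondrial isocitrate dehydrogenase, read 7.76 and 8.16 in the negative gate and 5.91 to 6.81 on the positive arrays (3.14-fold, adjusted p = 0.0118; 0.0918 and 0.133 without negative replicate 1 and 2). Histone genes are close copies, and their probes may read several of them.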
